A study of Mus musculus with 2 samples.

Results

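Respiratory complex I of muscle was measured through the genes whose symbols begin with Nduf. They were chosen by symbol alone: the mouse RefSeq gene table holds 49 such genes after 5 pseudogenes are left out, and 46 of them were named on the array, by 54 probes, among 21366 genes named in all. The 46 were 36 subunits of complex I, 8 assembly factors (Ndufaf genes), and Ndufa4 and its homolog Ndufa4l2. Ndufb1, Ndufb4b, and Ndufb4c had no named probe and were not analysed here. RNA was taken from the gastrocnemius, a calf muscle, of male mice 25 weeks old. One group was wild-type control mice (6 mice). The other was FOXO1-Tg mice (5 mice), which overexpress the transcription factor FOXO1 in skeletal muscle from a transgene, whose promoter is not given in the sources used here. The RNA of each group was pooled and hybridized to 1 Agilent 1-color array, so the comparison rests on 2 arrays, differences between mice cannot be seen, and no test across samples is possible.

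Complex I (NADH:ubiquinone oxidoreductase) is the entry point of electrons from NADH into the mitochondrial respiratory chain. It takes electrons from NADH at the tip of an arm in the matrix (the N module), passes them along iron-sulfur clusters to ubiquinone (the Q module), and uses the energy to pump protons through an arm in the inner membrane (the ND1, ND2, ND4, and ND5 modules). A core inherited from bacteria carries out the chemistry, supernumerary subunits surround it, and assembly factors help to build the enzyme without staying in it. Part of the core is encoded by mitochondrial DNA and is not among the genes measured here. The study asks what FOXO1 overexpression does to expression of PGC-1β, a coactivator that raises mitochondrial content, and complex I is part of the machinery of that organelle.

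Nearly all complex I genes had a ratio slightly below 0 once each array was scaled to its 75th percentile, and none differed by as much as 2-fold. Before scaling, the FOXO1-Tg signal was the lower one for 38 of 46 genes and for 42.6% of all detected genes. A ratio here is the log2 of the FOXO1-Tg signal over the wild-type signal, each divided by the 75th percentile signal of that array, for the brightest detected probe of the gene. Of the 46 genes, 45 (97.8%) had a ratio below 0, compared with 57.2% of the 16660 genes detected on at least 1 array and with 68.8% of the 924 genes whose signals lay between the quartiles of the complex I signals. The median ratio was -0.22 (0.860-fold), with a range from -0.44 for Ndufs8 to 0.08 for Ndufaf6, beside a median of -0.06 over all detected genes and of -0.12 over the genes of like signal. No complex I gene was more than 2-fold lower or higher (3.86% and 4.2% of all detected genes were, and 1.08% and 2.06% of genes of like signal). More than 1.2-fold lower were 13 of the 46 (28.3%), a share close to the 29.1% of all detected genes and the 29.8% of genes of like signal, and none was more than 1.2-fold higher, against 21% of all detected genes and 12% of genes of like signal. The count of 13 and the median depended on the scaling: with median scaling, no scaling, and cyclic loess the count was 4 of 46 in each, with medians of -0.11, -0.09, and -0.11, and the shares of all detected genes more than 1.2-fold lower were then 20.1%, 18.9%, and 21.2%. The SD of the ratios over the 46 genes was 0.11, compared with 0.64 over all detected genes and 0.46 over genes of like signal. It was of the size seen in respiratory complexes II, III, and V (0.096, 0.12, and 0.095), while complex IV had 0.23. The scanner's own error of a ratio was 0.20 for every one of the 46 genes. It is a nearly constant value that the scanner software assigns to bright spots and not a spread between mice. The ratios of 24 of the 46 genes were farther from 0 than this error, and those of 4 genes were farther than 2 times the error. Among all 16660 detected genes the counts were 9355 and 4493, and among the 924 genes of like signal 496 and 188. These counts are for the 75th percentile scaling. With no scaling the lowest of the 46 ratios was -0.31, which is within 2 times the error. All 46 genes were well above background on both arrays, each read by 1 spot of its brightest probe.

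**Figure D1:**
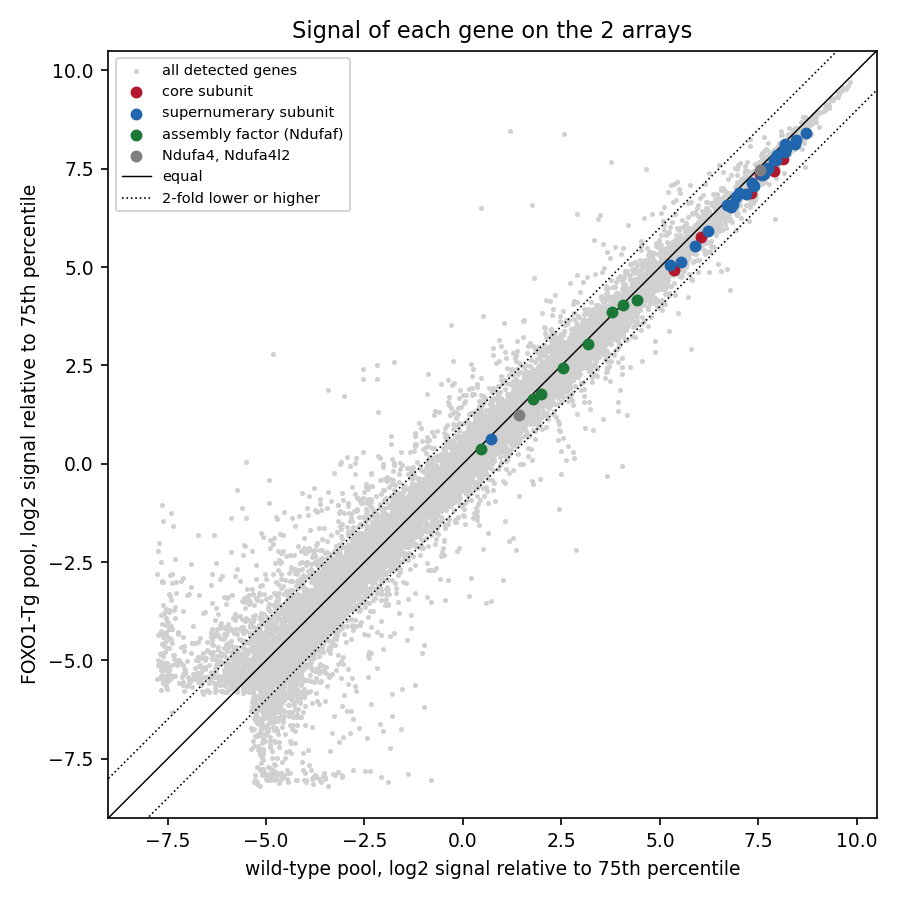
Log2 signal of each detected gene in the wild-type pool (x axis) and the FOXO1-Tg pool (y axis), each relative to the 75th percentile of its array. The 46 complex I genes (colored points) lie between the dotted lines that mark 2-fold, mostly just below the line of equal signal, and the assembly factors are read at lower signals than most subunits.

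The arrays differed little as wholes, and the labels of the pools could be checked. The 75th percentile signal was 771 on the wild-type array and 844 on the FOXO1-Tg array, a log2 difference of 0.13 that the scaling removes. The brighter Foxo1 probe had signals of 4540 and 279457, and a second Foxo1 probe had 2853 and 3188. All 10 muscle fiber markers, such as Acta1 and Ckm, were detected on both arrays and had a median ratio of -0.11. They ran from -0.44 for Myh2 to 0.11 for Mylpf. Of 8 slow fiber markers, all detected on both arrays, 7 had FOXO1-Tg signals below wild-type by over 2-fold (median -1.44, from -2.16 to -0.78), and the sum of their signals was 390501 for wild-type and 142427 for FOXO1-Tg muscle. The 7 adipocyte markers included 6 that were over 2-fold higher (median 1.88, summed signals 102840 and 300946). Medians were 1.35 for 5 keratinocyte, 0.50 for 5 fibroblast, 0.45 for 5 macrophage, 0.43 for 5 Schwann cell, 0.24 for 2 heart, and -0.24 for 6 endothelial markers. The keratinocyte median is the value of Krt1, which was detected on the FOXO1-Tg array only, at low signals of 22 and 61. Slow fibers are known to be rich in mitochondria. The part of the fiber types and of other cell types in the complex I ratios was not tested, and in pooled muscle fewer cells of a type and less RNA per cell cannot be told apart.

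Among the 7 core subunits measured, all had a ratio below 0 (57.2% of all detected genes did), with a median of -0.37 (0.776-fold). More than 1.2-fold lower were 5 of the 7 (71.4%, beside 29.1% of all detected genes). Ndufs8, which carries iron-sulfur clusters that pass electrons toward the quinone site, measured 31785 for wild-type and 25557 for FOXO1-Tg muscle, a ratio of -0.44 or 0.735-fold. Ndufs1, the largest subunit of the NADH-oxidizing tip and also an iron-sulfur protein, had signals of 123095 and 99556 (-0.44, 0.739-fold). Ndufs3, a core subunit of the Q module without a cofactor, had signals of 182229 and 148063 (-0.43, 0.743-fold). These were the 3 lowest of all 46 genes, and each ratio was more than 2 times the scanner error from 0. Ndufs7, which holds the last iron-sulfur cluster before ubiquinone, had signals of 213728 and 181385 (-0.37). Ndufv1, the subunit that binds NADH and flavin mononucleotide, had signals of 201070 and 184933 (-0.25). For its partner Ndufv2 the signals were 142884 and 140105, a ratio of -0.16, which is within the scanner error. Ndufs8, Ndufs3, and Ndufs7 of the Q module thus had lower ratios than Ndufv1 and Ndufv2 of the N module. Ndufs1, also of the N module, was about as low as Ndufs8 and Ndufs3.

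The promoters of complex I genes are shown here because the ratios of these genes lie close together, and to place known binding letters beside them. RefSeq promoter windows (GRCm38.p6, 250 bases before to 50 after the start) were held for 40 of the 46 genes. Both strands were searched for GCGCATGC (the core of the site of NRF1, a regulator of respiratory chain genes), AAGGTCA (the ERR motif, bound by estrogen-related receptors, the partners of PGC-1), GTAAACA (a FOXO element), and CCAAT (the NRF1 core can overlap its own reverse complement, so 1 place can match on both strands). The NRF1 core was found in 5 of 40 genes (12.5%) and in 3.05% of the 27025 genes in the promoter table. The ERR motif was found in 3 of 40 (7.5%) and in 5.38% of all, the FOXO element in 1 of 40 (2.5%) and in 4.05% of all, and CCAAT in 14 of 40 (35%) and in 41.1% of all. Among the 5 core genes with a window, only Ndufs8 held any of the 4, and it held CCAAT. A match is a run of letters and not a measured site. The 250 bases before the start are given for the lowest gene of the 46 and for 1 gene with each other motif, with the matches on either strand in capitals.
Ndufs8, chr19:3912775-3913024, reverse strand: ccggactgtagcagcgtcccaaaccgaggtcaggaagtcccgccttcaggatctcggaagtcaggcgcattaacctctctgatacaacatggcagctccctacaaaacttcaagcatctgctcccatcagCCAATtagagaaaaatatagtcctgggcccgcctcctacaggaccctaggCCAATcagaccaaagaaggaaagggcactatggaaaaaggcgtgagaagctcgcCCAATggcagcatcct
Ndufa6, chr15:82354292-82354541, reverse strand: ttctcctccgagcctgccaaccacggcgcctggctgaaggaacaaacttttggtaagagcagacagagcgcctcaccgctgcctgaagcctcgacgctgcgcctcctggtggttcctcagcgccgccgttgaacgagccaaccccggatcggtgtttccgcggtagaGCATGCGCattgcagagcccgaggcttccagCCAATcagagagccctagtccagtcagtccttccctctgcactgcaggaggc
Ndufb2, chr6:39592315-39592564, forward strand: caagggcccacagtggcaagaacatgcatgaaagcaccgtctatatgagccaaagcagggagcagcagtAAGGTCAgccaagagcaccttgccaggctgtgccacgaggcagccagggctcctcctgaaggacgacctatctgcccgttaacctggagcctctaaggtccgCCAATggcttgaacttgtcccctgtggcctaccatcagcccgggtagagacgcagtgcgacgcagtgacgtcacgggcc
Ndufaf1, chr2:119662835-119663084, reverse strand: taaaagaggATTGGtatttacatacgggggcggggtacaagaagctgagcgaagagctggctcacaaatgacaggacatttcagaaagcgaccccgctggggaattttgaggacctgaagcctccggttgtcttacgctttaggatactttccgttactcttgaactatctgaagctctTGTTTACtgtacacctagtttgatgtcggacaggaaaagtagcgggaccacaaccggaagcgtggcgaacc
Ndufs8 (-0.44) holds 3 matches to CCAAT. Ndufa6 (-0.26) holds 1 match to the NRF1 core and 1 to CCAAT, Ndufb2 (-0.32) holds 1 to the ERR motif and 1 to CCAAT, and Ndufaf1 (-0.23) holds 1 to the FOXO element and 1 to CCAAT. The other genes with the NRF1 core had ratios of -0.19 (Ndufa11), -0.29 (Ndufa8), -0.06 (Ndufaf5), and -0.04 (Ndufaf4), so genes with this motif lay on both sides of the complex I median.

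All 29 supernumerary subunits measured also had a ratio below 0 (57.2% of all detected genes did), with a median of -0.22. Beside 29.1% of all detected genes, 8 of the 29 (27.6%) were more than 1.2-fold lower. The core median was lower than theirs by 0.15, which is smaller than the scanner error of a single ratio and could not be tested with 1 array per group. Ndufa10, a membrane arm subunit of the ND2 module related to nucleoside kinases, was the lowest of them. Its signals were 35878 and 29328, a ratio of -0.42 (0.747-fold). Ndufa9, which sits beside the quinone site and binds a nucleotide cofactor, had signals of 45862 and 39337 (-0.35). Ndufb7 and Ndufb2 of the ND5 module had ratios of -0.33 and -0.32, and Ndufa13, also known as GRIM-19, had -0.31 with signals of 321871 and 284421. At the other end, Ndufb11, which is encoded on chromosome X, had signals of 223923 and 235417 (-0.06). Ndufab1, the mitochondrial acyl carrier protein, which also serves fatty acid synthesis, had signals of 1272 and 1308 (-0.09). In both, the FOXO1-Tg signal itself was the higher one before scaling. Ndufs4, whose loss causes a Leigh syndrome-like disease in mice, had signals of 88634 and 82083 (-0.24) and stood near the median. Ndufb4 has the near-identical copies Ndufb4b and Ndufb4c in the gene table, and whether its probes (-0.16 and -0.13) read them was not tested.

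**Figure D2:**
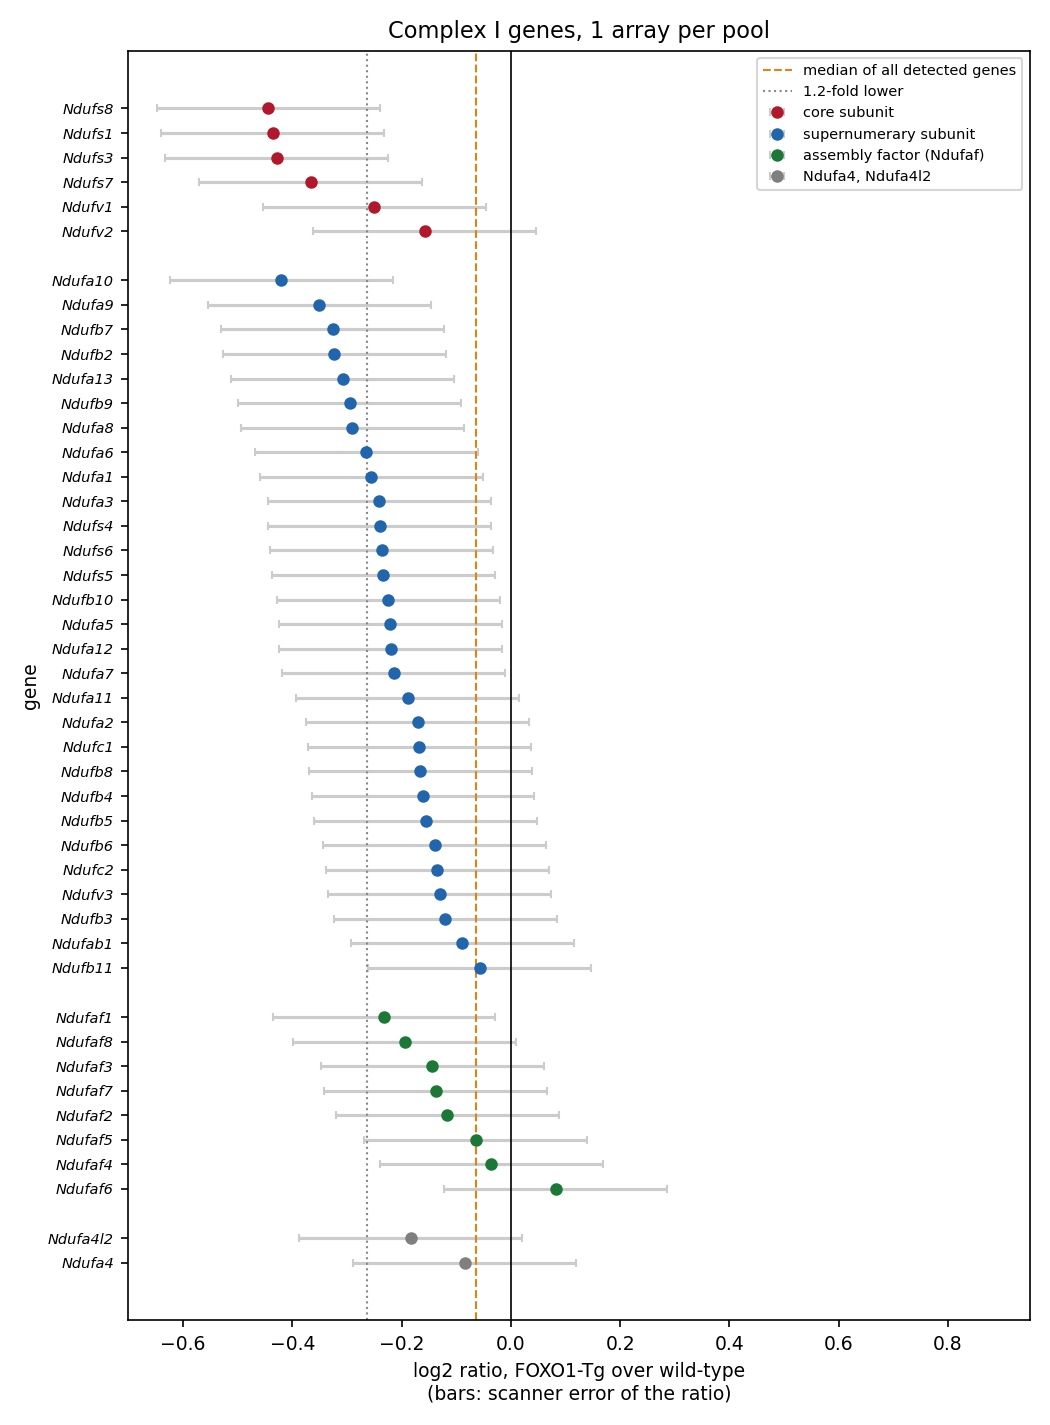
Log2 ratio (FOXO1-Tg over wild-type, x axis) of 45 of the 46 genes (y axis), by role, with bars for the scanner error of the ratio. Core subunits reach lowest, Ndufaf6 alone lies above 0, and most bars span the median of all detected genes.

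By module, ratios were lowest in the Q module and closest to 0 in the ND4 module. The 6 Q module genes had a median of -0.36. More than 1.2-fold lower were 5 of them (83.3%, beside 29.1% of all detected genes), Ndufa5 (-0.22) being the exception. The 5 measured genes of the ND4 module, all Ndufb subunits in the far part of the membrane arm, had a median of -0.16, from -0.22 for Ndufb10 to -0.06 for Ndufb11, and none was more than 1.2-fold lower. These modules differed by 0.20 in the median, about the scanner error of a single ratio, and did not overlap except that Ndufa5 and Ndufb10 were nearly equal. The ND5 module, at the tip of the same arm, had a median of -0.29 (5 genes), the ND1 module -0.29 (3 genes), the ND2 module -0.23 (5 genes), and the N module -0.23 (10 genes). The matrix arm as a whole (16 genes) and the membrane arm (18 genes) had medians of -0.25 and -0.23. No order from the matrix to the membrane was therefore seen.

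**Figure D3:**
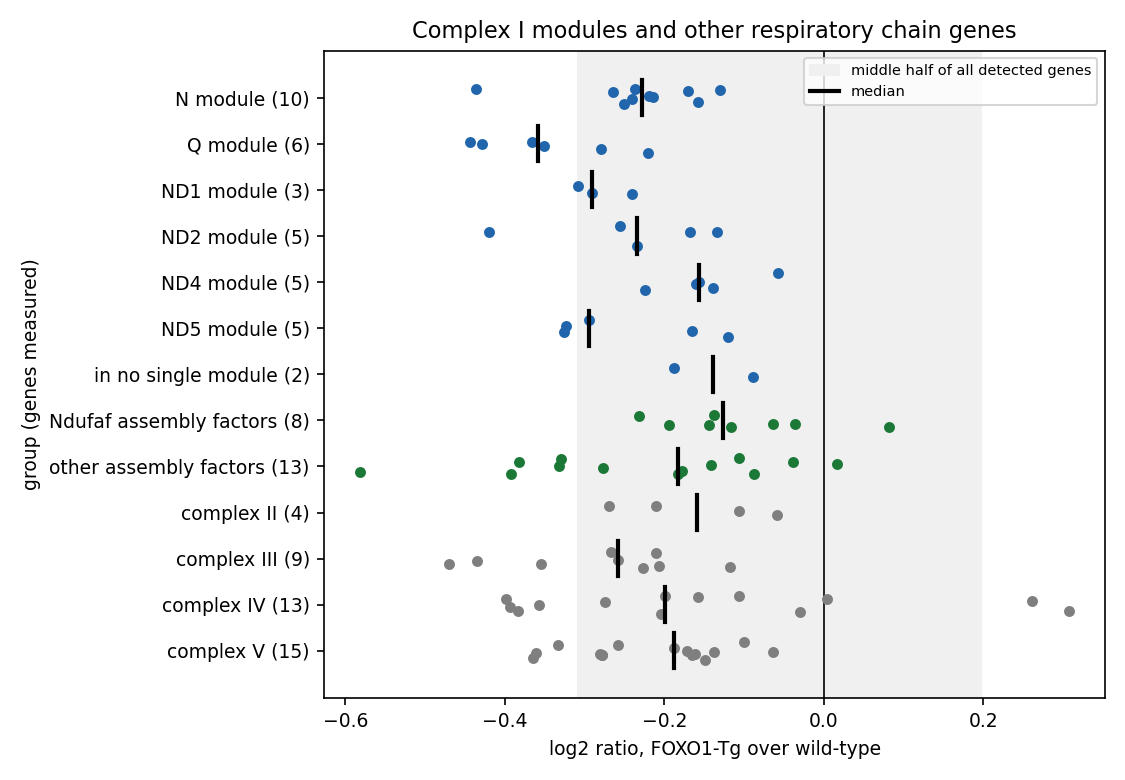
Log2 ratios (FOXO1-Tg over wild-type, x axis) of genes by complex I module, assembly factor list, and respiratory complex (y axis, with the number of genes), with a black bar for each median and a grey band between the quartiles of all detected genes. The Q module has the lowest median (-0.36), and 3 complex IV genes and 2 assembly factors lie above 0.

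The 8 assembly factors with Ndufaf symbols had a median of -0.13 (0.916-fold). Beside 57.2% and 29.1% of all detected genes, 7 of the 8 were below 0 and none was more than 1.2-fold lower. Their direction depended on the scaling: with median scaling the median was -0.017 and 5 of 8 were below 0, and with no scaling it was 0.002 and 4 of 8 were below 0. Ndufaf1, part of the complex that assembles the ND2 module, was the lowest, with signals of 16343 and 15219 (-0.23), and was the only 1 of the 8 past the scanner error. Ndufaf8, the partner of Ndufaf5 in human cells, had signals of 3029 and 2896 (-0.19). The Q module factors Ndufaf3 and Ndufaf4 had signals of 2664 and 2637 (-0.14) and of 12897 and 13758 (-0.04). Ndufaf7, a methyltransferase, had signals of 6999 and 6958 (-0.14), and Ndufaf2, a paralog of the subunit Ndufa12 that acts late in assembly, had 4503 and 4545 (-0.12). Ndufa12 itself had -0.22. Ndufaf5, which hydroxylates Ndufs7, had signals of 1053 and 1101 (-0.06). Ndufaf6, needed for early membrane arm assembly, had signals of 10539 and 12200. Its ratio of 0.08 was the only one above 0 among the 46 genes and was within the scanner error. With no scaling, Ndufaf6 had 0.21, just past the scanner error, and Ndufaf1 had -0.10, within it. The subunit median minus the Ndufaf median was -0.11, or -0.052 with cyclic loess. This difference is smaller than the scanner error of a single ratio and could not be tested. The Ndufaf probes were read at lower signals (1053 to 16343 for wild-type) than most subunit probes. The median over the 5783 genes within the signal range of the Ndufaf genes was -0.07. Over the 46 genes, the ratio and the mean log2 signal had a Pearson correlation of -0.32 (Spearman -0.22), a description across genes of the same 2 arrays. Of 14 other assembly factors listed, 13 could be matched. They had a median of -0.18, with 12 below 0 (92.3%, beside 57.2% of all detected genes). More than 1.2-fold lower were 6 of them (46.2%, beside 29.1% of all detected genes). The lowest was Ecsit at -0.58 (signals of 85136 and 62222), which acts with Ndufaf1 in the ND2 module. The highest was Tmem126b at 0.02 (2491 and 2755), a further member of that same assembly complex. These factors thus spread over a wider range than the subunits, and Ecsit lay below every subunit.

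Ndufa4 and Ndufa4l2 carry complex I names but are not counted as complex I subunits. Ndufa4, now assigned to complex IV, had signals of 143813 and 148375 (-0.08), and Ndufa4l2, its homolog induced by low oxygen, had 2068 and 1993 (-0.18). Both ratios were within the scanner error.

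A second probe was present for 8 genes. Of all 54 probes, 52 had a ratio below 0, while 57.2% of all detected genes, each read by its brightest probe, did. The 2 probes of a gene differed by 0.09 at the median of these 8 genes and by 0.36 at most. For Ndufa5, Ndufb4, Ndufb5, and Ndufb6 they differed by less than 0.05. Ndufb11 gave -0.06 with the brighter probe and -0.42 with the dimmer one, whose signals were 1297 and 1063. Ndufv3 had -0.13 and -0.45, the latter with signals of 532 and 427. Ndufaf5 differed in sign, with -0.06 for the brighter probe and 0.27 for the other, at signals of 162 and 213. In these 3 genes the gap was larger than the scanner error, and which transcript part each probe reads was not analysed here.

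**Figure D4:**
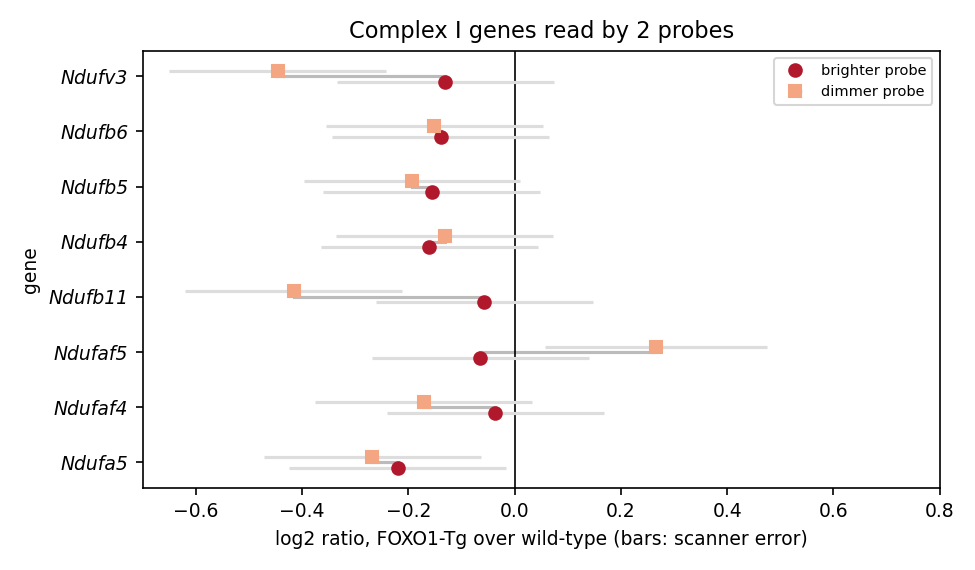
Log2 ratios (FOXO1-Tg over wild-type, x axis) from both probes of the 8 complex I genes with a second probe (y axis), with bars for the scanner error. The probes agree closely for Ndufa5, Ndufb4, Ndufb5, and Ndufb6 and lie apart for Ndufb11, Ndufv3, and Ndufaf5.

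Genes of the other respiratory complexes had ratios of similar size, so the small negative ratios were not particular to complex I. The medians were -0.16 for complex II (4 genes, from -0.27 for Sdhc to -0.06 for Sdhb), -0.26 for complex III (9 genes, from -0.47 for Uqcrc1 to -0.12 for Uqcrb), -0.20 for complex IV (13 genes, from -0.40 for Cox7a1 to 0.31 for Cox6a1), and -0.19 for ATP synthase (15 genes, from -0.37 for Atp5a1 to -0.06 for Atp5e). Below 0 were 4 of 4, 9 of 9, 10 of 13, and 15 of 15 genes, respectively, and none of these genes passed 2-fold. Of all detected genes 57.2% were below 0, and of the genes of like signal to complex I 68.8%. More than 2-fold lower or higher were 3.86% and 4.2% of all detected genes, and 1.08% and 2.06% of genes of like signal. Differences between the complexes could not be tested with 1 array per group.

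The sign of the smallest ratios depended on how the arrays were scaled. Before any scaling, the FOXO1-Tg signal was lower than the wild-type signal for 38 of the 46 genes and higher for 8, and the median ratio was -0.09, while 42.6% of all detected genes were below 0. No scaling moved the median of all detected genes from -0.06 to 0.06. Relative to the median of all genes, the complex I median lay lower by 0.15 in both cases. Leaving out the scaling adds 1 constant to the ratios, so it could hardly change this gap. Over the 11 alternatives, 37 of the 46 genes stayed below 0, Ndufaf6 stayed above 0, and 8 changed sign, namely Ndufa4, Ndufab1, Ndufb3, Ndufb11, Ndufv3, Ndufaf2, Ndufaf4, and Ndufaf5. Among these alternatives, the value table, both filters, and kept outlier spots left the ratios of the 46 genes unchanged. The share of all detected genes that stayed below 0 was not counted. All 7 core genes stayed below 0. The genes that stayed more than 1.2-fold lower under each alternative were Ndufs8, Ndufs1, Ndufs3, and Ndufa10.

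**Figure D5:**
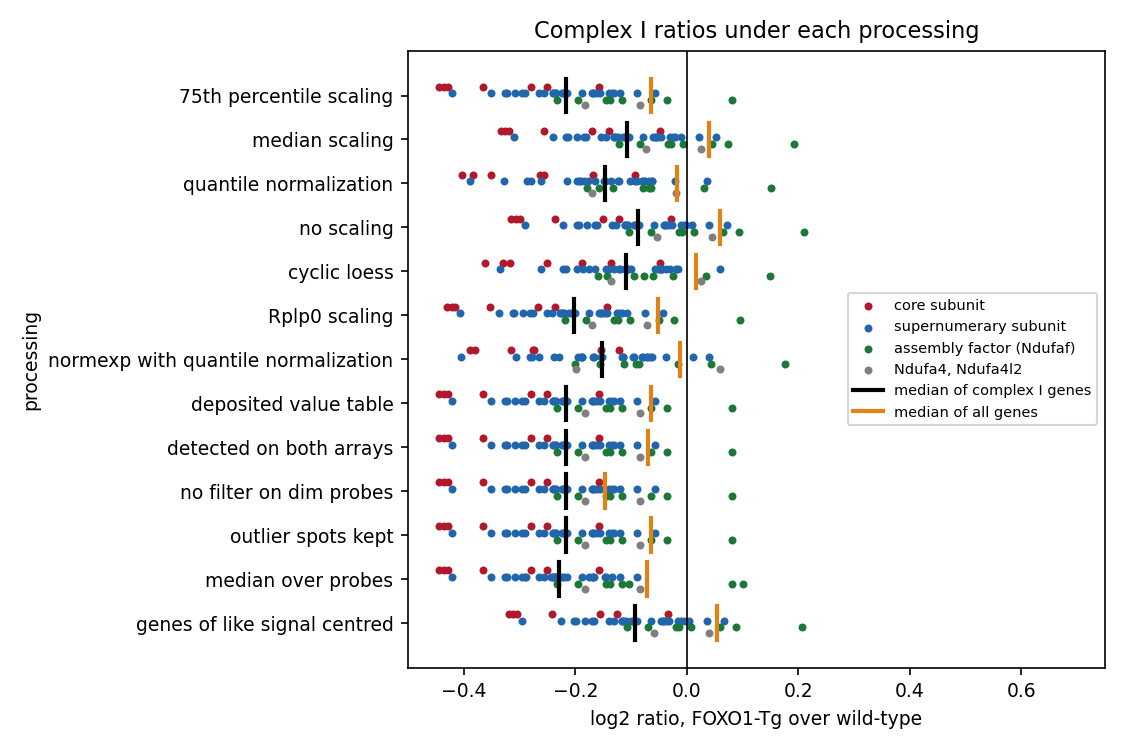
Log2 ratios (FOXO1-Tg over wild-type, x axis) of the 46 genes under each processing of the arrays (y axis), colored by role, with the medians of the complex I genes (black) and of all genes (orange). The black bar lies to the left of the orange bar in each row, by -0.16 to -0.07 over the settings other than the last, while its distance from 0 varies.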

How the data were processed

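RNA of gastrocnemius muscle, pooled from 6 wild-type and 5 FOXO1-Tg mice, was measured on 2 Agilent 1-color arrays. The authors deposited spot intensity as Agilent Feature Extraction's processed signal (11.0.1.1 per the file headers, 9.5 in the submitters' processing notes), background-subtracted and not scaled between arrays. Other well-above-background and outlier flags were used as deposited. Here, log2 signals minus the 75th percentile of 59305 non-control spots were computed, 237 outlier spots were left out, spots of a probe were averaged, and detection of a probe took 50% or more of the spots flagged well above background. Probes were named through unversioned RefSeq transcripts (GRCm38.p6); 28329 of 55670 matched. A gene took its brightest detected probe. A gene detected on 1 array counted by its bound against the lowest well-above-background signal. The deposited value table equals the scanner signals (largest log2 difference 0). The number of arrays limits the precision. Ratios carry the scanner error of both arrays, combined in quadrature.

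Named in full were the core subunits, Ndufaf genes, Ndufa4, Ndufa4l2, and the 5 lowest and 5 highest genes; others illustrate a group. The values of 1 gene by itself are not reported here, though it counts in every total and median. The members and lists were chosen with earlier results of these data known. Alternatives covered 5 scalings, normexp (offset 50, median signals) with quantile normalization, the value table, 2 filters, outlier spots, and the median over probes. The steps were tested on simulated data. Python 3.11.15, numpy 2.4.6, pandas 2.3.3, R 4.3.3, and limma 3.58.1 were used.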

Additional observations from a re-analysis of the deposited data

How the results depend on the processing

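No paired analysis was possible because there was 1 pooled sample a group, and a fit without a sample could not be made either. The count of complex I genes more than 1.2-fold lower depended most on the processing. It was 13 as reported, 4 with median scaling, 4 with no scaling, 4 with cyclic loess, and 8 with quantile normalization, and with a threshold of 1.5-fold it was 0. With the median of the genes of like signal set to 0, an alternative chosen after seeing the data, it was 4. It was 12 with Rplp0 scaling, 10 with normexp and quantile normalization, and 14 with the median over probes, and stayed at 13 with the value table, both filters, and outlier spots kept. Median scaling and no scaling add 1 constant to every ratio; for quantile normalization and cyclic loess the cause was not tested. The median over the 46 genes stayed between -0.23 and -0.09 over the 11 alternatives other than the threshold and the one chosen later, and the number below 0 between 38 and 45. The Ndufaf median, -0.13 as reported, was 0.002 with no scaling. The core median was below that of the supernumerary subunits by 0.12 to 0.15, and the Q module median below that of the ND4 module by 0.18 to 0.21. These 2 modules have the lowest and the highest module median in these same data. Median, Rplp0, and no scaling add 1 constant and could not change such differences. The value table, both filters, and kept outlier spots left them unchanged. Only quantile normalization, with or without normexp, cyclic loess, and the median over probes moved them. The subunit median minus the Ndufaf median ran from -0.11 to -0.052, the latter with cyclic loess. Of 209 values of 19 genes followed singly, none moved by more than the scanner error of 0.20. No scaling shifts every ratio by only 0.13, which could not pass that error, so the absence of larger moves says little. Of the 209 values, 18 had the opposite sign, all of them in Ndufa4, Ndufaf2, Ndufaf4, Ndufaf5, and Ndufb11. Filters on dim probes, kept outlier spots, and the value table left the complex I values given here as they were.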
